A study of Mus musculus with 17 samples.

Results

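The 38 genes described here encode lysosomal hydrolases and their cofactors, proteins of the lysosomal membrane, the transcription factor Tfeb and the lysosomal protein progranulin (Grn). They were taken by name and function from the 37620 gene IDs of an RNA sequencing table of mouse bone marrow-derived macrophages. The choice was made with earlier results of these data known. Each of the 38 matched 1 ID. Values are in TPM, a measure of transcript abundance corrected for transcript length, and all 38 reached TPM 1 in at least 3 libraries and were among the 12158 genes tested. The lysosome is the acidic compartment in which cells break down what they take up and what they recycle by autophagy. Its soluble hydrolases act in series, each removing 1 kind of sugar, sulfate, lipid or peptide bond, so that loss of a single enzyme leads to storage of its substrate. Heavily glycosylated proteins shield the membrane, and transporters and channels in it carry the products out. Macrophages, which ingest cells and matrix, are rich in lysosomes, and transcription factors of the MiT/TFE family, Tfeb among them, switch on many lysosomal genes together.

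The 17 libraries were cells of the C57BL/6J strain (H-2b), grown from bone marrow with macrophage colony-stimulating factor at 50 ng/ml for 7 days, an agent shared by all groups. By their titles, 5 libraries were wild-type controls, 4 were wild type given 5 ng/ml of TGF-β1 (transforming growth factor beta 1) over 5 days, 5 were Smad3-knockout controls and 3 were Smad3 knockout with TGF-β1. Smad3 is one of the transcription factors that TGF-β receptors activate, and the study follows macrophages into a myofibroblast-like state under TGF-β1. Control labels carry the same treatment wording as treated ones, so it is not known here how long the controls were cultured. A sort for smooth muscle actin and F4/80 is described for the study but is tied to no library. Libraries are tied to no animal or culture, and each may hold 1 cell or many, so p-values measure the spread between libraries only, and that spread may be technical.

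Libraries had 7269 to 10307 genes at TPM 1 or more, and their depth is unknown, since TPM does not retain it. Smad3 itself did not follow the labels: it reached TPM 1 in 2 of 9 wild-type libraries and in 3 of 8 libraries labelled knockout. Its median over the 17 libraries was 0.0 TPM, so these values do not settle the genotype of a library, and directions between genotypes below rest on the labels. Smad3 was at 0.0 to 15.4 TPM in wild-type controls, 0.0 in all 4 wild-type TGF-β1 libraries, 0.0 to 1.93 TPM in knockout controls and 6.18, 0.01 and 22.3 TPM in knockout with TGF-β1. Of 8 macrophage markers 5, Adgre1, Csf1r, Cd68, Itgam and Lyz2, reached TPM 1 in all 17 libraries. Fcgr1 did so in 16, Mrc1 in 8 and Mertk in 6, with medians of 69.9, 0.14 and 0.02 TPM. All 5 fibroblast, 4 lymphocyte and 4 mast cell markers stayed under TPM 1 everywhere, as did 6 of 7 neutrophil, 3 of 4 endothelial and 4 of 5 dendritic cell markers. The exceptions were S100a8, at TPM 1 in 3 libraries and up to 132 TPM, Kdr, in 10 libraries and up to 27.1 TPM, and Xcr1, in 2 libraries and up to 5.2 TPM. The mean log2(TPM + 1) of 12 cell-cycle markers moved with treatment. It lay between 3.38 and 7.51 in wild-type controls and between 7.48 and 8.08 with TGF-β1, and between 5.28 and 7.62 in knockout controls against 7.67 to 8.14 with TGF-β1. The summed TPM of 6 osteoclast markers differed by genotype label and, within knockout, by treatment. It was 0.22 to 132 over wild-type libraries, 86.3 to 230 in knockout controls and 373 to 515 in knockout with TGF-β1. The sum is no shift of the whole set: in the library with the highest sum, nearly all of it was Dcstamp, at 515 TPM. Acp5 and Ctsk, which are also lysosomal, had medians of 0.16 and 0.0 TPM and reached 133 and 26.3 TPM. Ocstamp reached 10.8 TPM, and Calcr and Mmp9 were listed at 0 in every library. The mitochondrial share of TPM was 4.59% to 7.4% in wild-type controls and 3.73% to 5.65% with TGF-β1. In libraries labelled knockout it was 3.51% to 6.75% in controls and 3.12% to 3.92% with TGF-β1. The part of these markers in the differences between groups was not tested.

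Levels of the 38 genes, which TPM makes comparable per transcript length, spanned a wide range. Grn had the highest mean over the 17 libraries at 2588 TPM, followed by the tetraspanin Cd63 at 2210, the macrophage and lymphocyte membrane protein Laptm5 at 2103, the saposin precursor Psap at 1388, Lamp1 at 1365, the protective protein Ctsa at 1159 and the hexosaminidase alpha chain Hexa at 1038. Each gap between neighbours in that order was smaller than the range of either gene over the libraries. A further 15 genes had means from 100 to under 1000 TPM and 14 from 10 to under 100 TPM. The lowest were Tfeb, with a mean of 6.48 TPM, and the iduronate sulfatase Ids, with 4.35 TPM. Tfeb was listed at 0 in 5 libraries, Ids in 2 and the aspartylglucosaminidase Aga in 1, and the other 35 genes were listed at 0 in none. In 28 genes every library reached TPM 1.

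The spread between libraries of a group followed the level only in part. On the log2(TPM + 1) scale the residual SD was lowest for Lamp1 at 0.26, Gusb at 0.31, Grn at 0.33 and Cd63 at 0.36. It was highest for Aga at 2.41, the heparan sulfamidase Sgsh at 2.13, arylsulfatase A (Arsa) and Tfeb, both at 1.91, and the sulfatase Galns at 1.84. Genes of the second kind moved between near 0 and far higher levels among libraries of 1 group. Sgsh, for example, was at 32.4, 82.1, 1.58, 0.35 and 15.5 TPM in the 5 wild-type controls. None of 20 genes that every cell uses was at 0 in any library, and their lowest value was 126 TPM.

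**Figure D1:**
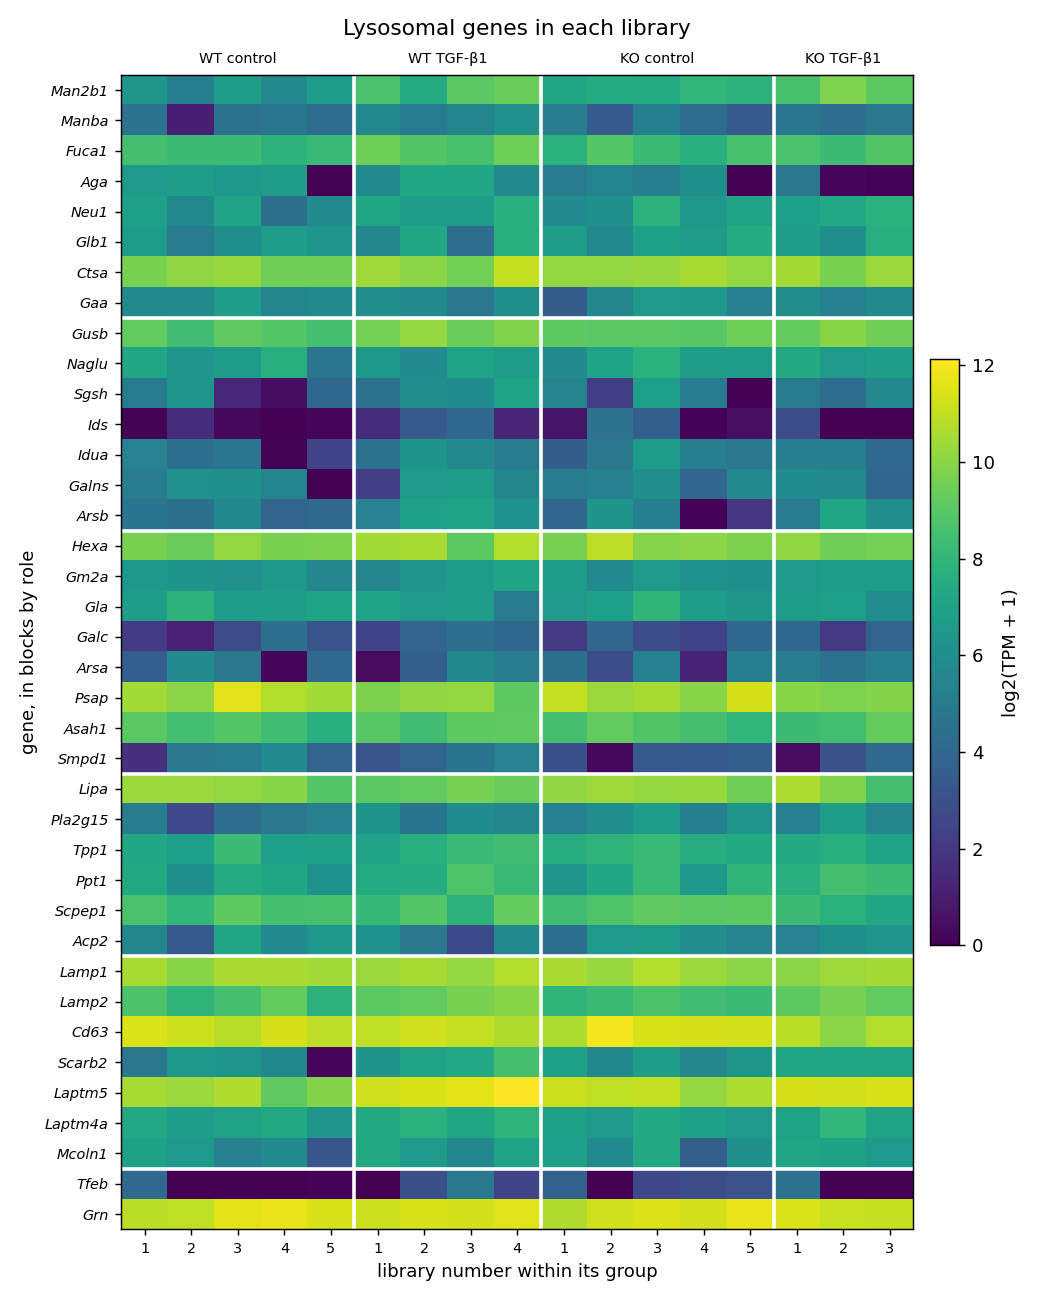
Log2(TPM + 1) of the 38 genes (rows, in blocks by role) in the 17 libraries (columns, in blocks by group), as colour. The rows of Grn, Cd63, Laptm5 and Lamp1 are bright in every library, while Ids and Tfeb are dark in most and Aga, Sgsh and Arsa have scattered dark cells in brighter rows.

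The summed TPM of the 38 genes made up 1.55% ± 0.24 (SD, n = 5) of a wild-type control library and 1.92% ± 0.27 (n = 4) with TGF-β1. In libraries labelled knockout it was 1.76% ± 0.19 (n = 5) in controls and 1.68% ± 0.10 (n = 3) with TGF-β1. The wild-type groups overlapped in this sum, at 12966 to 19012 TPM in controls and 16968 to 23077 TPM with TGF-β1. They did not overlap in the median log2(TPM + 1) of the 38 genes, which weighs each gene equally: it ran from 6.25 to 6.81 in controls and from 7.02 to 7.69 with TGF-β1. In knockout libraries that median ran from 6.51 to 7.45 in controls and from 7.04 to 7.12 with TGF-β1, with overlap.

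**Figure D2:**
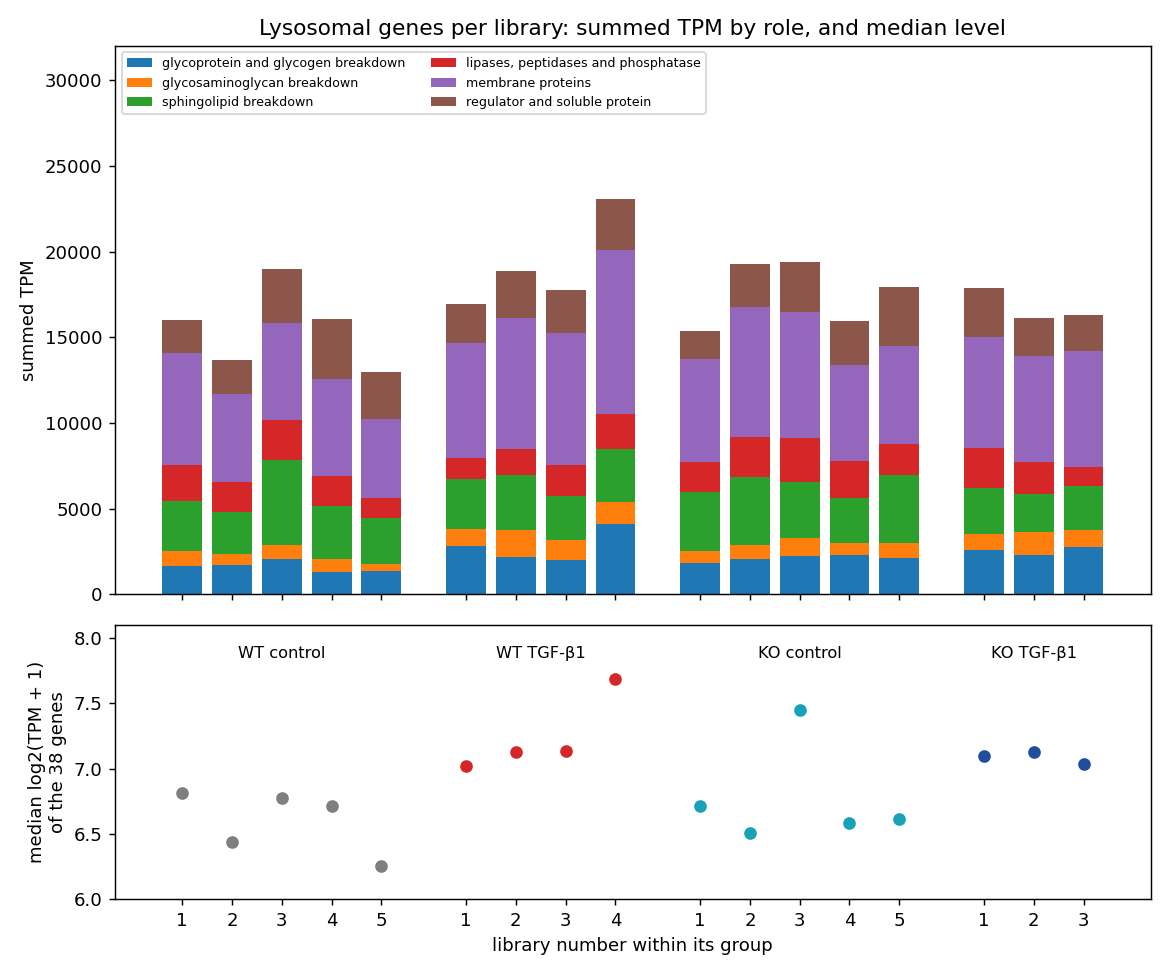
Summed TPM of the 38 genes in each library, stacked by role (bars, from 0), with the median log2(TPM + 1) of the 38 genes in the same library (points). The wild-type TGF-β1 libraries have medians from 7.02 to 7.69, above all wild-type controls, and their membrane protein and glycosaminoglycan blocks are taller than those of every wild-type control. Most of the change in the membrane protein block is Laptm5, and most of the glycosaminoglycan block is Gusb.

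With TGF-β1 in wild type, Man2b1 and Laptm5 rose, and none of the 38 genes fell, at an adjusted p under 0.05 (limma, Benjamini-Hochberg over the 12158 genes tested). By comparison, 0.181% of all genes tested passed in either direction, and 0.107% of all genes tested passed upward. At an unadjusted p under 0.05 stood 10 genes that were higher and 1 that was lower, against 6.7% and 3.27% of all genes tested. The difference was above 0 in 29 of the 38, with a median of 0.66, while 53.8% of all genes tested were above 0, with a median of 0.09. For 5 of the 38, Man2b1, Manba, Fuca1, Gusb and Laptm5, every TGF-β1 library was above every control, as in 1.8% of all genes tested. Whether a bulk level reflects fewer cells of a kind or less RNA in each cannot be told apart here. The part that the difference in cell-cycle markers between these groups has in the values was not tested. With the marker mean as a covariate, an alternative added after seeing the data, the same count of 2 genes passed and the median was 1.08. The marker mean itself moved with treatment, so that fit cannot separate the part of the markers from that of TGF-β1.

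With TGF-β1 in libraries labelled knockout, none of the 38 genes passed limma's adjusted threshold, which 0.00823% of all genes tested did, a single gene. At an unadjusted p under 0.05 stood 3 that were higher and 3 that were lower, against 3.73% and 2.2% of all genes tested. The difference was above 0 in 22 of the 38, with a median of 0.09, and in 53.1% of all genes tested, with a median of 0.07. After upper-quartile scaling, which shifts the median of all genes by -0.10, the median of the 38 was -0.06. Man2b1, Lamp2, Scarb2 and Laptm5 were higher in every TGF-β1 library than in any control and the carboxypeptidase Scpep1 was lower, against 3.05% and 1.84% of all genes tested.

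The difference between the TGF-β1 effects, knockout minus wild type, passed the adjusted threshold for none of the 38 genes, and 0.0% of all genes tested passed it. At an unadjusted p under 0.05 were 2 of the 38, Laptm5 and Scpep1, both with the lower effect in knockout, and 0 had the higher effect, against 2.43% and 2.25% of all genes tested. The difference of effects was above 0 in 10 of the 38, with a median of -0.44, and in 48.7% of all genes tested, with a median of -0.04. Knockout against wild type gave none past the adjusted threshold in controls, where 0.148% of all genes tested passed. Nor did any pass under TGF-β1, where 0.156% did. At an unadjusted p under 0.05 were 3 higher and 0 lower in controls, against 3.9% and 1.92% of all genes tested, and 0 higher and 1 lower under TGF-β1, against 3.21% and 2.04%. The contrasts share libraries, so their values for 1 gene are not independent of each other.

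**Figure D3:**
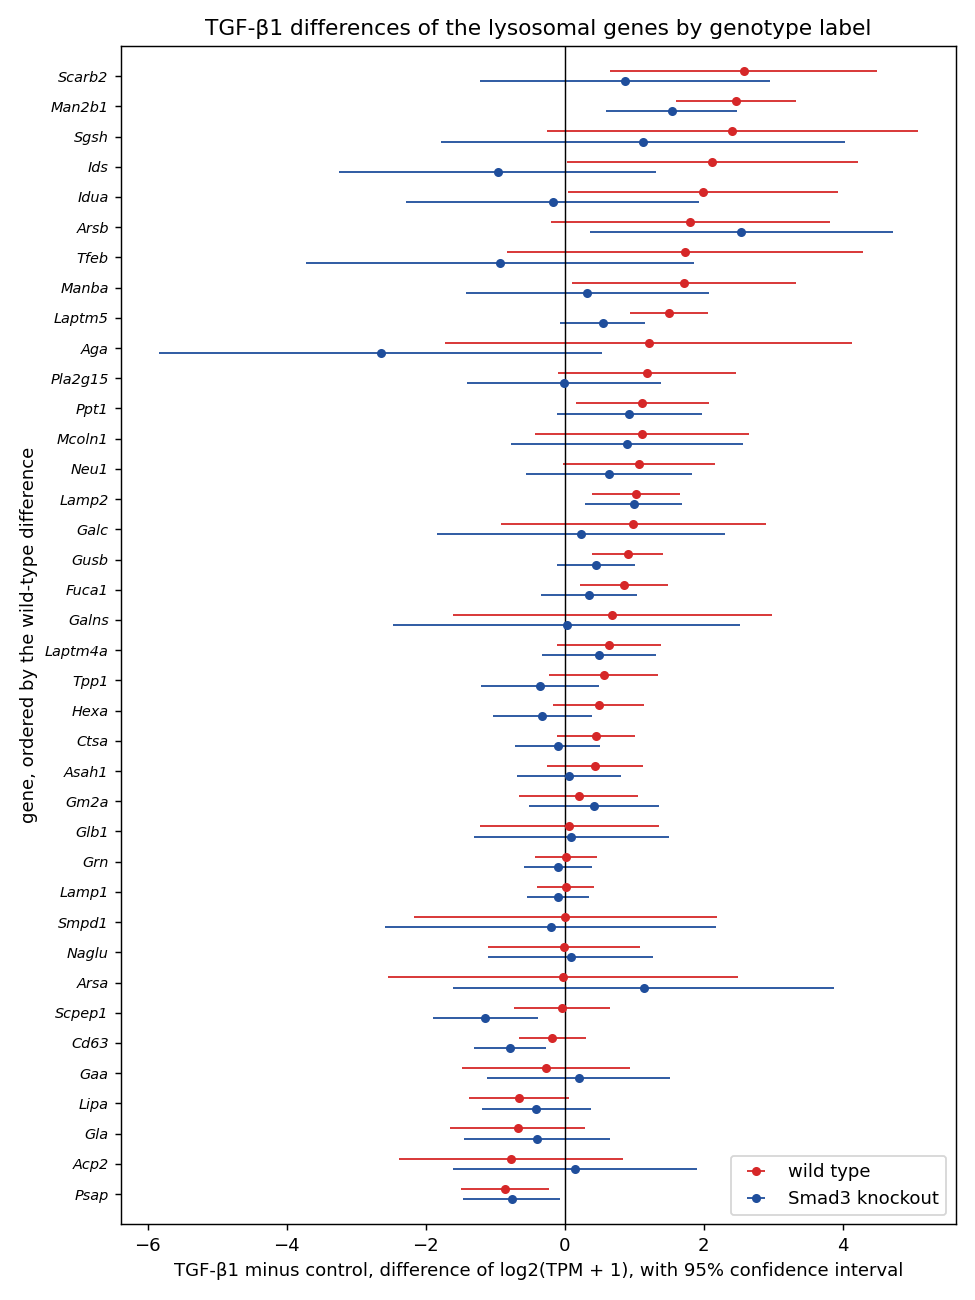
TGF-β1 minus control difference on the log2(TPM + 1) scale for each of the 38 genes, in wild type (red) and in libraries labelled knockout (blue), with 95% confidence intervals from limma and a line at 0. Red points lie right of 0 for 29 genes and blue points for 22, and the intervals are narrow for Lamp1 and Grn and several units wide for Aga, Sgsh and Tfeb.

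Among the 8 genes for glycoprotein and glycogen breakdown, 7 differences were above 0 with TGF-β1 in wild type, with a median of 0.96. Man2b1 (ENSMUSG00000005142), the lysosomal alpha-mannosidase that trims mannose from glycoproteins, was at 85.1, 36.4, 109, 51.5 and 101 TPM in wild-type controls. With TGF-β1 it was at 400, 176, 530 and 650 TPM. The lowest treated library thus stood above the highest control, and the means were 76.6 ± 31.5 and 439 ± 203 TPM (SD). Man2b1 rose by 2.46 on the log2(TPM + 1) scale (SE 0.41, limma adjusted p = 0.00846), a 5.52-fold change of TPM + 1. The call was lost in 4 of 28 alternatives, over which the adjusted p ran from 0.00359 to 0.126, among them leaving out wild-type TGF-β1 replicate 4 (0.0582) or leaving out the 6 libraries with over 10% of moderately expressed genes at 0 (0.126). The difference stayed between 2.23 and 2.86 in all 28.

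Man2b1 in libraries labelled knockout was at 154, 182, 176, 258 and 228 TPM in controls and at 390, 884 and 548 TPM with TGF-β1, again without overlap. That difference was 1.54 (SE 0.45) with an unadjusted p of 0.00275, and it missed the adjusted threshold at 0.526. Knockout controls were all above the highest wild-type control, by 1.46 (SE 0.39, unadjusted p = 0.00131, limma adjusted p = 0.331), a pattern seen in 0.683% of all genes tested. The effect of TGF-β1 was smaller in knockout by 0.92, with a 95% interval from -2.20 to 0.36 that includes 0. By its means Man2b1 was lowest in wild-type control, then knockout control, then the treated groups, which overlapped with each other.

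The beta-mannosidase Manba, which cleaves the last mannose link of the same glycans, was at 1.04 to 26.5 TPM in wild-type controls and 29.5 to 69.2 TPM with TGF-β1. Its difference of 1.72 (SE 0.77) had an unadjusted p of 0.0377 and an adjusted p of 0.472, and was 1.01 without wild-type control replicate 2, the library at 1.04 TPM, and 2.77 without the 6 libraries rich in genes at 0. The fucosidase Fuca1 was at 227 to 372 TPM in wild-type controls and 384 to 713 TPM with TGF-β1, a difference of 0.85 (SE 0.30, unadjusted p = 0.0107, limma adjusted p = 0.332). For each of these genes the gap between the wild-type groups was smaller than the range of either group. In knockout libraries Manba was at 9.46 to 36.2 TPM in controls and 19.7 to 27.4 TPM with TGF-β1, and Fuca1 at 207 to 494 and 320 to 457 TPM, so the groups overlapped for each.

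Aga, which splits the bond between glycan and asparagine, had the widest spread of the 38. It was at 90.7, 108, 86.7, 102 and 0.04 TPM in wild-type controls, and at 54.5, 152, 147 and 53.0 TPM with TGF-β1. In libraries labelled knockout it was at 31.6, 44.2, 35.3, 64.4 and 0.0 TPM in controls and at 27.1, 0.12 and 0.09 TPM with TGF-β1. All 3 treated knockout libraries lay below all 4 treated wild-type libraries, as for Manba and as in 2.34% of all genes tested. The difference under TGF-β1 was -4.80 (SE 1.60, unadjusted p = 0.00693, limma adjusted p = 0.625), or -2.69 with a pseudocount of 10. The sialidase Neu1, the galactosidase Glb1, Ctsa, which protects both of these, and the acid glucosidase Gaa, which degrades glycogen, had unadjusted p over 0.05 in all 5 comparisons, with wild-type TGF-β1 differences of 1.07, 0.07, 0.45 and -0.27.

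The 7 genes for glycosaminoglycan breakdown had the highest median of the roles with TGF-β1 in wild type, at 1.81, with 6 of 7 above 0. That rank rests on uncertain values: the median is the Arsb difference, with an SE of 0.96. Above it lay Sgsh, Ids and Idua, with SEs of 0.93 to 1.28 and wild-type controls under TPM 1 for each. The summed level of the 7 genes did not overlap between the wild-type groups, at 435 to 859 TPM in controls and 949 to 1601 TPM with TGF-β1. Most of that sum was Gusb, the beta-glucuronidase that removes glucuronate from heparan, dermatan and chondroitin chains. Gusb was at 587, 341, 567, 496 and 371 TPM in wild-type controls and at 772, 1178, 676 and 910 TPM with TGF-β1. Every treated library was above every control, and the difference was 0.90 (SE 0.24, unadjusted p = 0.00143), with an adjusted p of 0.149. In knockout libraries it was at 512 to 693 TPM in controls and 611, 1017 and 719 TPM with TGF-β1, a difference of 0.45 with a 95% interval from -0.11 to 1.01. The difference between the effects, -0.45, had an interval from -1.21 to 0.30.

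Ids and Idua open the breakdown of heparan and dermatan sulfate, Ids by removing a sulfate and Idua by removing the iduronate this exposes. Ids was at 0.06, 2.04, 0.22, 0.03 and 0.17 TPM in wild-type controls and at 1.99, 9.31, 16.1 and 1.39 TPM with TGF-β1, so only control replicate 2 reached the treated range. The difference was 2.13 (SE 1.01, unadjusted p = 0.0473, limma adjusted p = 0.499), and it ran from 0.63 with a pseudocount of 10 to 3.83 with a pseudocount of 0.1. In libraries labelled knockout Ids was at 0.63, 23.6, 11.7, 0.07 and 0.40 TPM in controls and at 6.22, 0.0 and 0.0 TPM with TGF-β1, with the knockout effect lower by 3.09 (95% interval -6.19 to 0.01). Idua, at 0.06 to 40 TPM in wild-type controls and 21.9 to 77.9 TPM with TGF-β1, differed by 1.99 (SE 0.93, unadjusted p = 0.0451, limma adjusted p = 0.499). The Idua difference was 1.15 without wild-type control replicate 4, the library at 0.06 TPM, and ran from 0.39 to 3.28 over 28 alternatives. At these low levels single libraries near 0 set much of the spread.

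Arsb, the sulfatase that acts on dermatan and chondroitin sulfate, had an unadjusted p under 0.05 only with TGF-β1 in knockout libraries. There it was at 15.2, 76.8, 36.8, 0.07 and 2.77 TPM in controls and at 31.6, 138 and 63.1 TPM with TGF-β1, a difference of 2.54 (SE 1.04, unadjusted p = 0.0247, limma adjusted p = 0.774). It was 1.69 without knockout control replicate 4, the library at 0.07 TPM, and 1.53 with a pseudocount of 10. In wild type it was at 14.8 to 49.8 TPM in controls and 41.1 to 132 TPM with TGF-β1, a difference of 1.81. Naglu and Sgsh, which remove acetylglucosamine and the sulfate on glucosamine from heparan chains, and Galns, which desulfates keratan sulfate, had unadjusted p over 0.05 throughout. Sgsh had the largest difference of these, 2.41 in wild type, beside an SE of 1.28.

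Of the 8 genes for sphingolipid breakdown, none was higher at an unadjusted p under 0.05 in any comparison, and the median with TGF-β1 in wild type was 0.10. Psap, the precursor of the saposins that present sphingolipids to their hydrolases, was lower with TGF-β1 in both genotypes without passing the adjusted threshold. It was at 1403, 1058, 3042, 1699 and 1412 TPM in wild-type controls and at 865, 1103, 1178 and 552 TPM with TGF-β1. In knockout libraries it was at 2045, 1285, 1476, 1003 and 2649 TPM in controls and at 1005, 875 and 939 TPM with TGF-β1. The groups met at 1 control library in each genotype, replicate 2 in wild type and replicate 4 in knockout. The differences were -0.86 (SE 0.31, unadjusted p = 0.011, limma adjusted p = 0.332) and -0.76 (SE 0.33, unadjusted p = 0.033, limma adjusted p = 0.794), or -0.57 and -0.50 with the cell-cycle covariate, and they differed from each other by 0.09 with an interval from -0.85 to 1.04.

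Hexa, Gm2a, Gla, Galc, Arsa, Asah1 and Smpd1, the enzymes and the activator that strip ceramide lipids of their sugars, sulfate and head groups and cleave ceramide itself, had unadjusted p over 0.05 in all 5 comparisons. Hexa, the most abundant of the enzymes, was at 639 to 1162 TPM in wild-type controls and 544 to 1712 TPM with TGF-β1. The acid ceramidase Asah1 had means of 381, 497, 409 and 430 TPM in wild-type control, wild-type TGF-β1, knockout control and knockout TGF-β1. Smpd1, the acid sphingomyelinase, was at 2.36 to 57.0 TPM in wild-type controls and 0.19 to 11.7 TPM in knockout controls, a difference of -1.53 beside an SE of 0.99.

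The 6 lipases, peptidases and phosphatases divided evenly in wild type, 3 above 0 and 3 below, with a median of 0.26. Scpep1, a serine carboxypeptidase, was at 399, 258, 553, 380 and 389 TPM in wild-type controls and at 275, 496, 228 and 624 TPM with TGF-β1, so the controls lay within the treated range. In libraries labelled knockout it was at 338, 440, 579, 530 and 556 TPM in controls and at 319, 213 and 150 TPM with TGF-β1. All 3 treated knockout libraries were below all knockout controls, with a difference of -1.14 (SE 0.36, unadjusted p = 0.00503, limma adjusted p = 0.627). The effects differed by -1.10 (SE 0.49, unadjusted p = 0.0369, limma adjusted p = 0.997). Ppt1, which removes palmitate from proteins, was at 67.7 to 176 TPM in wild-type controls and 173 to 442 TPM with TGF-β1, a difference of 1.12 (SE 0.46, unadjusted p = 0.0237, limma adjusted p = 0.43), or 1.84 with the cell-cycle covariate.

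The phospholipase Pla2g15 was at 33.2, 5.3, 19.4, 26.9 and 38.3 TPM in wild-type controls and at 38.5, 61.1, 101, 36.4 and 81.4 TPM in knockout controls. Only knockout replicate 4 fell within the wild-type range, and the difference was 1.46 (SE 0.58, unadjusted p = 0.0199, limma adjusted p = 0.753). With TGF-β1 it was at 76.3, 25.1, 58.6 and 48.8 TPM in wild type and 39.3, 110 and 46.2 TPM in knockout, and these groups overlapped. The acid lipase Lipa, which frees cholesterol and fatty acids from ingested lipoproteins, was at 493 to 1283 TPM in wild-type controls and 516 to 788 TPM with TGF-β1, a difference of -0.66 beside an SE of 0.35. The tripeptidyl peptidase Tpp1 and the acid phosphatase Acp2 had unadjusted p over 0.05 throughout.

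Of the 7 membrane proteins 6 had differences above 0 with TGF-β1 in wild type, with a median of 1.03, and their summed level did not overlap, at 4595 to 6541 TPM in controls and 6687 to 9588 TPM with TGF-β1. Most of the change in that sum was Laptm5: the mean sum went from 5512 to 7899 TPM and the Laptm5 mean from 1187 to 3229 TPM. The Lamp2 mean also rose, from 375 to 738 TPM, while Lamp1 was flat and Cd63 went from 2308 to 2032 TPM. How often sums of other genes separate these groups was not examined, here or for the glycosaminoglycan genes. Laptm5 (ENSMUSG00000028581), a transmembrane protein of lysosomes in blood-derived cells that sends receptors to degradation, was at 1487, 1249, 1675, 569 and 958 TPM in wild-type controls. With TGF-β1 it was at 2475, 2737, 3207 and 4498 TPM. Every treated library was well above every control. Laptm5 rose by 1.5 on the log2(TPM + 1) scale (SE 0.27, limma adjusted p = 0.0161), a 2.83-fold change of TPM + 1 between means of 1187 ± 438 and 3229 ± 898 TPM (SD). The call was lost in 6 of 28 alternatives, over which the adjusted p ran from 0.00897 to 0.231, and leaving out wild-type TGF-β1 replicate 4 gave 0.086. The difference stayed between 1.20 and 1.77 in all 28.

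Laptm5 in libraries labelled knockout was at 2266, 2007, 2066, 1199 and 1581 TPM in controls and at 2594, 2496 and 2695 TPM with TGF-β1. The treated libraries lay close together and above all controls, with a difference of 0.54 whose 95% interval ran from -0.07 to 1.16. The effect was lower than in wild type by 0.96 (SE 0.40, unadjusted p = 0.0266, limma adjusted p = 0.997). Knockout controls were higher than wild-type controls by 0.68 (SE 0.25, unadjusted p = 0.0149, limma adjusted p = 0.734), with overlap. That value was 0.44 without wild-type control replicate 4 and 0.34 without the 6 libraries rich in genes at 0, and the difference of effects was -0.58 without those 6. The means in order were 1187 TPM in wild-type control, 1824 in knockout control, 2595 in knockout TGF-β1 and 3229 in wild-type TGF-β1.

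Lamp1 and Lamp2, the main glycoproteins of the lysosomal membrane, differed in pattern. Lamp1 had means of 1401 ± 221, 1411 ± 225, 1357 ± 274 and 1259 ± 193 TPM (SD) in wild-type control, wild-type TGF-β1, knockout control and knockout TGF-β1. Its wild-type difference was 0.01 with a 95% interval from -0.40 to 0.42. Lamp2, which also serves chaperone-mediated autophagy, was at 429, 242, 373, 609 and 223 TPM in wild-type controls and at 533, 590, 816 and 1014 TPM with TGF-β1. In knockout libraries it was at 244, 307, 434, 342 and 308 TPM in controls and at 561, 790 and 593 TPM with TGF-β1. Wild type overlapped through control replicate 4 alone, and knockout did not overlap. The differences were 1.03 (SE 0.31, unadjusted p = 0.00318, limma adjusted p = 0.221) and 0.99 (SE 0.33, unadjusted p = 0.00738, limma adjusted p = 0.665), and the difference of the effects was -0.03 with an interval from -0.98 to 0.91.

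Cd63, a tetraspanin of late endosomes and lysosomes, was at 2820, 2337, 1826, 2623 and 1934 TPM in wild-type controls and at 1984, 2414, 2086 and 1644 TPM with TGF-β1. In knockout libraries it was at 1598, 3890, 2707, 2609 and 2516 TPM in controls and at 1855, 1041 and 1692 TPM with TGF-β1. The wild-type groups overlapped in part, and in knockout only control replicate 1 lay within the treated range. The knockout difference was -0.79 (SE 0.25, unadjusted p = 0.00517, limma adjusted p = 0.627), and -0.38 without the 6 libraries rich in genes at 0. Scarb2, the receptor that brings glucocerebrosidase to the lysosome, was at 0.12 to 89.1 TPM in wild-type controls and 76.6 to 372 TPM with TGF-β1. Its difference of 2.57 (SE 0.92, unadjusted p = 0.0111, limma adjusted p = 0.332) was 1.44 without wild-type control replicate 5, the library at 0.12 TPM, and 1.62 without the 6 libraries rich in genes at 0. In knockout libraries Scarb2 was at 48.6 to 122 TPM in controls and 139 to 143 TPM with TGF-β1. Laptm4a and the calcium channel Mcoln1 had wild-type differences of 0.64 and 1.11 with unadjusted p over 0.05.

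**Figure D4:**
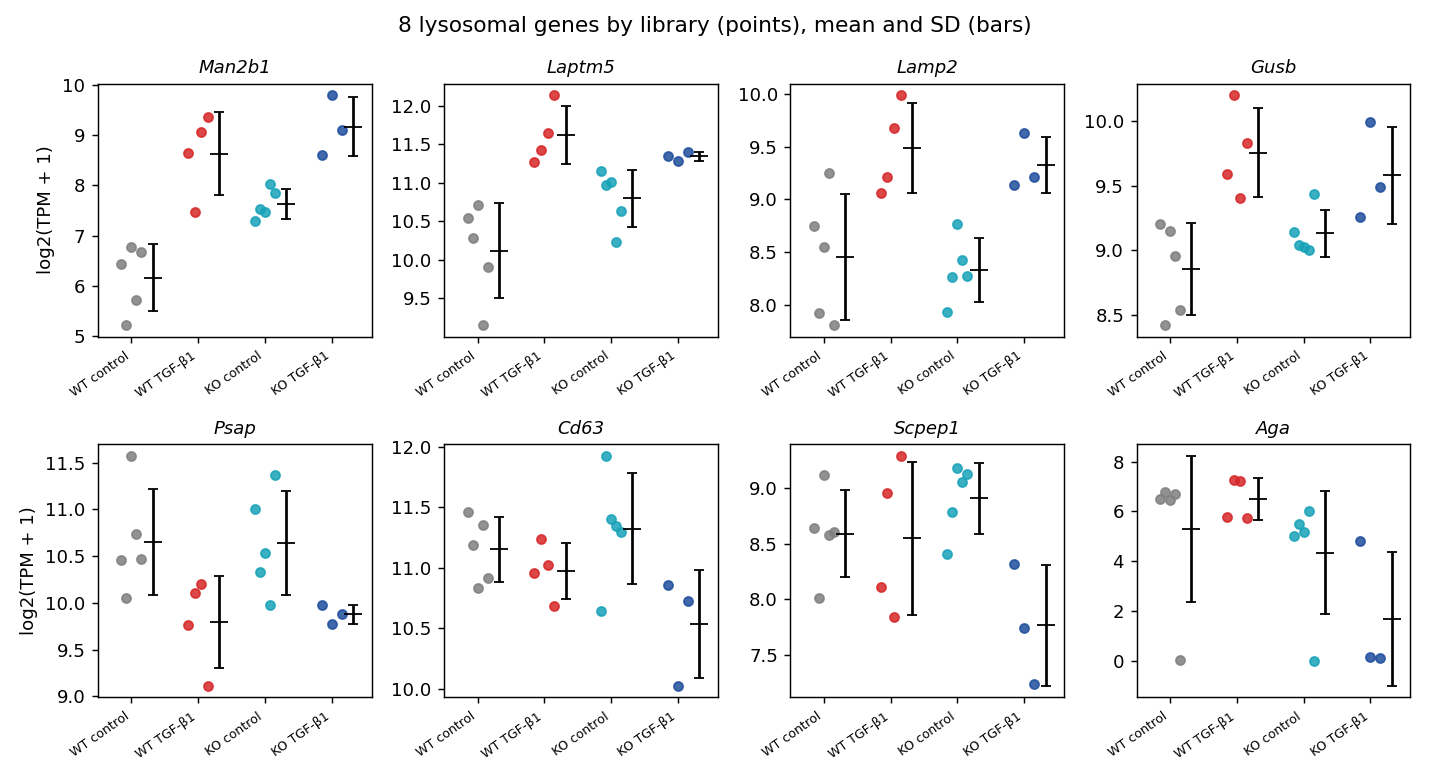
Log2(TPM + 1) of 8 of the 38 genes in each library (points) with the group mean and SD on that scale (bars), by group. Man2b1 and Laptm5 separate the wild-type groups fully, Lamp2 and Gusb have higher and Psap lower means with TGF-β1 in both genotypes, Cd63 and Scpep1 have their lowest means in treated knockout libraries, and Aga is near 0 in 4 libraries.

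Tfeb, the regulator among the 38, was at 16.6, 0.0, 0.0, 0.0 and 0.08 TPM in wild-type controls and at 0.0, 6.88, 27.7 and 4.63 TPM with TGF-β1. In knockout libraries it was at 12.8, 0.0, 5.29, 6.22 and 7.59 TPM in controls and at 22.4, 0.03 and 0.03 TPM with TGF-β1. High and low libraries occurred in every group, and the wild-type difference of 1.73 had an SE of 1.23. Tfeb acts mainly through its entry into the nucleus, which these data do not measure. Grn, whose product is cut into granulins in the lysosome, was at 1892 to 3541 TPM in wild-type controls and 2302 to 2971 TPM with TGF-β1, a difference of 0.02 with a 95% interval from -0.43 to 0.46. Grn was the most abundant of the 38 and among the steadiest.

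MiT/TFE factors bind a DNA element built around the letters CACGTG, so promoter windows from 250 bases before to 50 after each gene's start were read from the RefSeq table for GRCm38.p6, a later build than the submitters' mm9. Of the 38 genes 35 had a window, and Aga, Asah1 and Galns had none. CACGTG, which reads the same on both strands, stood in 9 of the 35 (25.7%), against 8.09% of the 27025 genes in the table. The longer TCACGTG, searched on both strands and always overlapping CACGTG, stood in the same count of 9, against 4.29% of those genes. The 9 genes were Arsa, Ctsa, Gaa, Gla, Glb1, Lamp1, Mcoln1, Naglu and Sgsh. The stretches below are the 3 promoters that hold CACGTG more than once before the start, in 100 bases, and for comparison those of Man2b1 and Laptm5, which rose, and Lamp2. Capitals mark CACGTG, and each stretch runs from 100 bases before the start to the base before it, except that of Gla, which runs from 250 to 151 bases before it.
Lamp1, chr8:13159061-13159160, plus strand: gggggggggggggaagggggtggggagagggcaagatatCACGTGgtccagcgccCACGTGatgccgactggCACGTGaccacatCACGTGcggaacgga
Mcoln1, chr8:3500419-3500518, plus strand: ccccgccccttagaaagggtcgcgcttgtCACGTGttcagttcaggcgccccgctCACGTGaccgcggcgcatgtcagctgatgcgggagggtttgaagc
Gla, chrX:134601156-134601255, minus strand: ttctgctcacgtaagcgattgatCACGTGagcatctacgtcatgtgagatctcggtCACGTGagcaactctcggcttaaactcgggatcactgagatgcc
Man2b1, chr8:85083169-85083268, plus strand: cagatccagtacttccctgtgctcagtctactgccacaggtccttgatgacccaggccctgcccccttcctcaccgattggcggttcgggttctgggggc
Laptm5, chr4:130913216-130913315, plus strand: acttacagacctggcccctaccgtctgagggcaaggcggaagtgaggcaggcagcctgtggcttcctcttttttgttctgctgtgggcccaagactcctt
Lamp2, chrX:38456461-38456560, minus strand: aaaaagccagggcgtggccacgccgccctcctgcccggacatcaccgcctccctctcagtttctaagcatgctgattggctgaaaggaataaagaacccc

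Lamp1 held CACGTG 4 times within these 100 bases, and Mcoln1 and Gla held it 2 times each. No CACGTG stood in the windows of Man2b1, Laptm5 or Lamp2, which says only that these letters are not there. The 9 genes with CACGTG had a median TGF-β1 difference in wild type of 0.01, from -0.68 for Gla to 2.41 for Sgsh, with 5 of 9 above 0. The 26 genes without it had a median of 0.95, from -0.86 for Psap to 2.57 for Scarb2, with 21 of 26 above 0. In knockout libraries the medians were 0.10 and 0.19. These are descriptions of the windows and were not tested.

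Other lysosomal genes were counted from lists chosen by function, also with earlier results of these data known. Among 12 tested of 13 cathepsins, legumain and cystatins, 2 rose with TGF-β1 in wild type (limma, adjusted p under 0.05), against 0.107% of all genes tested. They were the aspartic protease Ctsd and the cathepsin inhibitor Cst3, which are a protease and an inhibitor of other proteases. The list median was 0.36, with 7 of 12 above 0. At an unadjusted p under 0.05 in wild type, 3 of the list were higher and 2 lower, against 6.7% and 3.27% of all genes tested. Ctsd was at 7218 ± 3391 and 27053 ± 7369 TPM in wild type, a difference of 1.98 (SE 0.30, limma adjusted p = 0.00371), and at 9549 ± 2780 and 7189 ± 2213 TPM in knockout. Under TGF-β1 it was lower in knockout by 1.91 (limma adjusted p = 0.0152). The difference of the Ctsd effects, -2.38 (SE 0.44, unadjusted p = 2.66e-05), did not pass the adjusted threshold (limma adjusted p = 0.3). Cst3 was at 1386 ± 373 and 3127 ± 997 TPM in wild type, a difference of 1.16 (SE 0.23, limma adjusted p = 0.0446). In knockout it was at 1740 ± 287 and 2885 ± 735 TPM, a difference of 0.71 (SE 0.25, unadjusted p = 0.0113, limma adjusted p = 0.713). The difference of the Cst3 effects was -0.45 (SE 0.35, unadjusted p = 0.206, limma adjusted p = 0.997). In knockout libraries none of the list passed, where 0.00823% of all genes tested did. At an unadjusted p under 0.05, 2 were higher and 2 lower there, against 3.73% and 2.2% of all genes tested. The list median in knockout was -0.45, with 3 of 12 above 0.

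The machinery that acidifies and supplies the lysosome gave no calls in the comparisons with TGF-β1 (limma, adjusted p under 0.05). At that threshold only 0.181% of all genes tested passed in wild type and 0.00823% in knockout. At an unadjusted p under 0.05, 6.7% of all genes tested were higher and 3.27% lower in wild type. In knockout the same shares were 3.73% and 2.2%. Over the 16 subunits of the proton pump the wild-type median was -0.08, with 0 higher and 2 lower at an unadjusted p under 0.05. In knockout libraries their median was -0.27, with 0 higher and 4 lower. The 15 tested transport and other membrane proteins had medians of 0.01 in wild type, with 1 higher and 1 lower, and -0.57 in knockout, with 0 higher and 2 lower. Over the 9 genes of mannose 6-phosphate sorting, which tags hydrolases for delivery, the wild-type median was -0.46, with 1 higher and 0 lower. The 14 MiT/TFE regulators and genes that control them had a wild-type median of -0.16, with 0 higher and 1 lower, and the 15 autophagy genes 0.11, with 2 higher and 1 lower. In knockout libraries these 3 lists had medians of 0.20, -0.09 and -0.07, with 1 autophagy gene lower and no other gene of them at an unadjusted p under 0.05. Beside these, the 38 genes had the wild-type median of 0.66 given above.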

How the data were processed

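RNA was taken from a cell suspension and copied to cDNA by SMART-seq2, per the labels' protocols. The authors deposited TPM values (abundances corrected for transcript length, with the same total in every library); per the submitters' processing notes they used FastQC, Trim Galore and RSEM with the mm9 build, and versions are not given in the sources used here. RSEM divides reads among similar transcripts. Symbols came from GENCODE vM21 for 32897 of 37620 IDs, and 0 columns were left unused.

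The scale was log2(TPM + 1), on which changes of low genes are understated. Genes at TPM 1 in at least 3 of 17 libraries (12158) were fitted once over the 4 groups with limma 3.58.1 in R 4.3.3 (lmFit, eBayes with a trend), and p-values were adjusted by Benjamini-Hochberg over all of them. The 38 genes and the other lists were chosen with earlier results of these data known, and a further list of hydrolases is not reported here. Every gene of the 38 is accounted for. Differences are given in full at an unadjusted p under 0.05, and values per library for genes past the adjusted threshold and up to 3 with the smallest p in each other comparison; further values, among them those per library of Tfeb, Lamp2, Gusb, Psap, Sgsh and Arsb, were added after they were seen. Tested on simulated data for TGF-β1 in wild type (12158 genes), the fit recovered 20% of genes changed by 2 log2 units and 52% of those changed by 4, with 1 false call among 73.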

Additional observations from a re-analysis of the deposited data

Results flagged for a closer look

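Among 42 groups examined for 13 genes with values per library and for the summed TPM of the 38, 4 held a single library far from the rest. The limit used is passed in about 1 in 20 groups of normally spread values. Values near 0 are not spread in that way, and some of the genes were added after their values were seen, so that rate is only a rough guide. The knockout TGF-β1 group, with 3 libraries, was not examined. Ids in wild-type control replicate 2 was at 2.04 TPM, while the other 4 wild-type controls were at 0.03 to 0.22 TPM. Aga in wild-type control replicate 5 was at 0.04 TPM, while the other 4 were at 86.7 to 108 TPM. Aga in knockout control replicate 5 was listed at 0.0 TPM, while the other 4 were at 31.6 to 64.4 TPM. Tfeb in wild-type control replicate 1 was at 16.6 TPM, while the other 4 were at 0.0 to 0.08 TPM.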

How the results depend on the processing

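For TGF-β1 in wild type, the 2 genes of the 38 past the adjusted threshold became 0 with the compared groups fitted alone, with no filter on low values and without the 6 libraries over the limit on genes at 0, 1 after upper-quartile scaling, and 0 to 2 with each library left out, 0 only without wild-type TGF-β1 replicate 4. The 22 of all genes became 5, 6 and 5 under the first 3 of these and 14 to 34 with each library left out. The median of 0.66 became 1.08 with the cell-cycle marker mean as covariate, an alternative added after seeing the data, and 0.48 to 0.85 with each library left out. In libraries labelled knockout the 1 gene of all became 0 with the compared groups alone, the detected genes as covariate, a filter at TPM 5, a pseudocount of 0.1 and without the 6 libraries, 5 with no filter, 4 with a pseudocount of 10, 6 after quantile normalization (3 higher and 3 lower, against 0 and 1), and 0 to 10 with each library left out; the median of 0.09 became 0.52 with the cell-cycle covariate and -0.04 to 0.23 with each library left out. For the difference of effects the 0 of all genes became 1 with the cell-cycle covariate, 1 with no filter and 0 to 1 with each library left out, and the median ran from -0.62 to -0.26. Knockout against wild type kept counts of 16 to 23 in controls (18 as fitted, 8 without the 6 libraries) and 12 to 21 under TGF-β1 (19 as fitted, 3 with the compared groups alone, 7 without the 6 libraries) with each library left out; the medians of the 38 ran from 0.12 to 0.35 and from -0.26 to -0.10. In comparisons other than TGF-β1 in wild type, 0 of the 38 passed in every alternative. Of 642 alternatives for 23 pairs of a named gene and a comparison, 632 kept direction and side of the threshold, 10 lost the call and 0 reversed; the cause was not tested. Quantile normalization shifted the median of all genes by -0.15 in wild type, -0.13 in knockout and -0.11 between controls. Depth is unknown.

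Replicate numbers gave no sign of pairing: deviations of 22 same-numbered pairs correlated at -0.076 to 0.021, 0 of them over 0.1. Noise between libraries can hide a shared animal or culture, so these values do not settle whether any libraries are paired. With the replicate block, 1 of the 38 and 11 of all genes passed in wild type, 0 of all genes in knockout and 10 between genotypes under TGF-β1.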
